A study of Mus musculus with 6 samples.

Results

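Bcl6, Bcl6b and Bcl11b encode zinc-finger transcriptional repressors. Their transcripts were followed in RAW 264.7 cells, an established mouse macrophage line. The treated cells received 100 ng/ml LPS together with 100 pM LBP for 2 h, and the control cells received neither. LPS (lipopolysaccharide) is the endotoxin of Gram-negative bacteria and LBP (LPS-binding protein) the serum protein that hands it to its receptor. Both RNAs of an array came from the same line. Cells given only LPS or only LBP are not among the samples analysed here. The measurements are log2 ratios from 6 arrays with 2 colours, each carrying 1 treated and 1 untreated RNA. Treated RNA carried Cy5 on 3 arrays and Cy3 on 3, and within each dye orientation the arrays are numbered as sets 1 to 3. The set mean of a Cy5 and a Cy3 array is the unit of replication (n = 3 sets), and the labels do not say that sets were separate cultures, so their spread may be technical. Part of the labels, the series title included, writes the line as RAW 264.4.

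The genes were taken by symbol from the platform annotation, and they are 3 of 9472 named genes measured on all 6 arrays. Each has 1 probe. They were chosen by their treatment ratios, which were above 0 together after 2 h, so those ratios are given as a description, with no test. A ratio has no absolute level: the arrays show how far a transcript differed between treated and untreated cells, not how abundant it was, and whether a given transcript lay above background is unknown. For the same reason the macrophage identity of the cells could be set against its markers only through their ratios.

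Bcl6 is a member of the BTB zinc-finger family, in which a BTB domain recruits corepressors and the zinc fingers bind DNA at sites that resemble those of STAT factors. It is best known as the master regulator of germinal centre B cells and of follicular helper T cells, and in macrophages it restrains inflammatory and chemokine genes. Bcl6b, also called Bazf, is its closest relative and carries a nearly identical set of zinc fingers. Bcl11b, also called Ctip2, belongs to a different zinc-finger family with no BTB domain. It is known for T cell commitment and for work with the NuRD and BAF chromatin complexes. Its paralogue Bcl11a acts in B cell and erythroid development.

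Start-site windows of Bcl6 are shown first, because Bcl6 is the member whose ratio repeated most closely between single arrays and because STAT proteins are known regulators of it. The table of RefSeq promoters held windows for 2 of the 3 genes, Bcl6 with 2 start sites and Bcl11b with 1. The bases before each Bcl6 start are given 5′ to 3′ on the minus strand, build GRCm38.p6, with matches to the STAT-type motif TTCNNNGAA in capitals. The upstream window is chr16:23988867-23989102, of which the 14 bases next to the start were left out because they lie inside the annotated gene. The downstream window is chr16:23981284-23981533, inside the annotated gene span.
Bcl6 upstream start: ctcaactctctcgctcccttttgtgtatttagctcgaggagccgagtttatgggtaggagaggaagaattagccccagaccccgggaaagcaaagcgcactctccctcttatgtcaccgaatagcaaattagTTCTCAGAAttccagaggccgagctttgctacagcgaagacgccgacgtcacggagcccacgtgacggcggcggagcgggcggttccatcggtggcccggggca
Bcl6 downstream start: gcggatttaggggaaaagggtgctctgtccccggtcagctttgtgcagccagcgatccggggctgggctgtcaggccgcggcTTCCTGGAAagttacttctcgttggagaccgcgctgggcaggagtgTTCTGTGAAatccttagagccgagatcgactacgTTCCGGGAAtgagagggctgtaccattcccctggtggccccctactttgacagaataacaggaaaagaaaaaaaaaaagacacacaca

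The upstream window held 1 match to TTCNNNGAA, at -118 from the start. The downstream window held 3, which begin at -168, -122 and -88. Of 32851 RefSeq windows of the 250 bases before a start, 7.02% held at least 1 such match and 0.0274% (9 windows) held 3 or more. The match at -168 also fits TTCCTNGAA, a form of the site known for Bcl6 itself, which 1.31% of windows held. The 2 motifs overlap there, so this is 1 stretch of DNA counted under both. The E-box CACGTG was found once in the upstream window, at -60, against 6.02% of all windows. Neither Bcl6 window, nor that of Bcl11b, held a match to the NF-κB motif, to the AP-1 motif TGANTCA, or to the CRE, IRF, C/EBP and SRF motifs searched, on either strand. The window of Bcl11b held no match to any of the 9 motifs searched. A match is a description of the letters and not a site that was shown to be bound. The windows of all genes that held the other motifs made up 7.25% for NF-κB, 6.75% for AP-1, 1.55% for CRE, 2.98% for IRF, 9.56% for C/EBP and 0.0609% for SRF.

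Bcl6b stood furthest above 0. With treated RNA in Cy5, its log2 ratios of treated over untreated were 1.37, 0.26 and 0.99 for sets 1 to 3. With treated RNA in Cy3 and the sign turned, they were 0.99, 1.27 and 1.18. The ratio was above 0 on 6 of 6 arrays, and 5 of the arrays lay within 0.99 to 1.37. The Cy5 array of set 2 lay apart from them. The set means were 1.18, 0.76 and 1.08, which gave 1.01 ± 0.22 (SD, n = 3 sets), or 2.01-fold. Bcl6b held rank 123 of 11231 features by mean ratio. Without the low array its value was 1.18.

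Bcl6 differed less from untreated cells than Bcl6b, and over single arrays it had the narrowest range of the 3 genes. Its log2 ratios were 0.62, 0.44 and 0.36 in sets 1 to 3 with the treated RNA in Cy5, and 0.64, 0.47 and 0.44 with it in Cy3. All 6 arrays lay between 0.36 and 0.64, and 21.6% of features had a narrower range. The set means were 0.63, 0.46 and 0.40, a mean of 0.50 ± 0.12 (SD, n = 3 sets), or 1.41-fold. Set 1 was higher than the others in both dye orientations. The SD over sets was larger than that of 71.3% of features, whereas for Bcl11b that share was 26.9%. The mean stood above that of 97.4% of features, at rank 288.

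Bcl11b had the smallest difference and the widest relative scatter between single arrays. Its log2 ratios were 0.71, 0.21 and 0.34 with the treated RNA in Cy5, and 0.02, 0.50 and 0.19 with it in Cy3, for sets 1 to 3. The Cy3 array of set 1 was close to 0, at 1.02-fold, and on that array Bcl11b lay above 56.4% of features. The same set gave the highest value, 1.63-fold, on its Cy5 array. The set means of 0.37, 0.35 and 0.27 were close to each other, so that the mean was 0.33 ± 0.05 (SD, n = 3 sets), or 1.26-fold. The SD of the 6 single arrays was 0.25. The small SD of the sets therefore rests on averaging arrays that disagreed. Bcl11b held rank 494 by mean ratio.

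The ratio was above 0 on all arrays for each of the 3 genes, as it was for 8.93% of all features, while 10.2% were below 0 on all arrays. This count belongs to the way the genes were picked and is no result about them. In all sets the order of the ratios was Bcl6b, then Bcl6, then Bcl11b. The log2 ratio of Bcl6 minus that of Bcl6b was -0.51 ± 0.19 (SD, n = 3 sets), with differences of -0.55, -0.31 and -0.68, and Bcl6 was the higher of this pair on 1 array. Bcl6 exceeded Bcl11b by 0.17 ± 0.09 (SD, n = 3 sets) and was the higher on 4 of 6 arrays. Bcl6b exceeded Bcl11b by 0.68 ± 0.23 (SD, n = 3 sets). Bcl6 and Bcl11b thus overlapped between single arrays, while Bcl6b lay above Bcl11b on every array. These order statements concern treated over untreated ratios and not abundance. Bcl6 and Bcl6b are similar in sequence, and whether their probes tell the transcripts apart was not tested. In bulk RNA, more transcript per cell and more cells that carry it cannot be told apart.

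**Figure D1:**
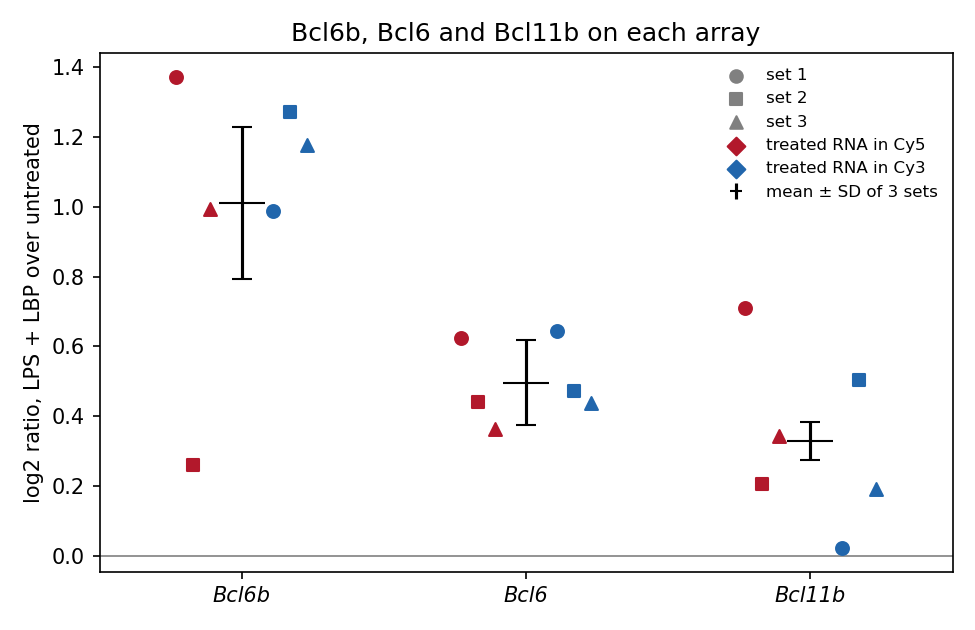
Log2 ratio of LPS and LBP over untreated (vertical axis) for Bcl6b, Bcl6 and Bcl11b on each of 6 arrays, with colour for the dye of the treated RNA, marker shape for the set, and the mean ± SD of the 3 sets in black. Bcl6 lies between 0.36 and 0.64 on all arrays, Bcl6b has 1 low array at 0.26, and Bcl11b reaches from 0.02 to 0.71.

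The dye orientation was examined too, but it is not independent of the choice of genes. With the signs left as deposited, the mean of the Cy5 and Cy3 arrays of a set cancels the treatment and leaves the lean of a probe to a dye. For a gene above 0 on all arrays, this lean must be smaller in size than its mean ratio, so a stronger lean was shut out beforehand. This dye effect was -0.02 ± 0.01 for Bcl6, -0.13 ± 0.35 for Bcl6b and 0.09 ± 0.25 for Bcl11b (log2 scale, SD, n = 3 sets). None passed the threshold by limma with Benjamini-Hochberg adjustment over all features (adjusted p = 0.699, 0.632 and 0.653). The 95% intervals ran from -0.11 to 0.07 for Bcl6, from -0.59 to 0.32 for Bcl6b and from -0.23 to 0.41 for Bcl11b. A dye lean cancels from the mean treatment ratio, which holds both orientations equally. Over all features, 0 of 11231 passed this limma test, 2477 had an unadjusted p under 0.05, and 56 passed in a limma fit to the 6 single arrays.

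Within a set, the gap between the Cy5 array and the turned Cy3 array showed where the scatter lay. For Bcl6 the gap was 0.02, 0.03 and 0.07 in sets 1 to 3 in absolute terms, below the median gap of all features in each set (0.19, 0.29 and 0.15). For Bcl6b it was 0.38, 1.01 and 0.18, and the gap in set 2 exceeded that of 94.4% of features. For Bcl11b it was 0.69 in set 1, larger than that of 91.2% of features, and 0.30 and 0.15 in the others, near the medians. Across features, the paired arrays correlated with r = 0.27 in set 1, 0.12 in set 2 and 0.65 in set 3 after turning. The dye-swapped arrays of sets 1 and 2 thus repeated each other less well than those of set 3. Between sets, arrays of the same dye orientation correlated with r from 0.50 to 0.72 for Cy5 and from 0.51 to 0.73 for Cy3. Once each orientation's mean was taken away, what remained on the arrays of a set correlated negatively on this turned scale, with r = -0.40, -0.43 and -0.14. Features are not independent replicates, and the part of array quality in these gaps was not tested.

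**Figure D2:**
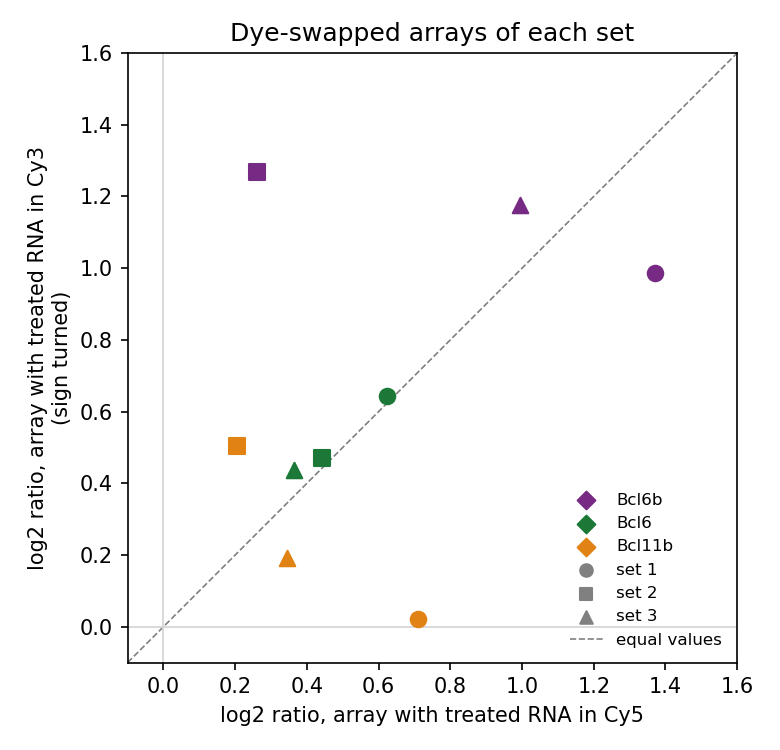
Each point is 1 gene in 1 set, with the log2 ratio of the array with the treated RNA in Cy5 on the horizontal axis and that of the dye-swapped array, sign turned, on the vertical axis; the dashed line marks equal values. The Bcl6 points lie on or close to the line, Bcl6b in set 2 lies far above it (0.26 against 1.27), and Bcl11b in set 1 far below it (0.71 against 0.02).

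Relatives of the 3 genes moved in both directions, and the paralogue of Bcl11b did not pass the test. Among 17 measured genes of the BTB zinc-finger family other than Bcl6 and Bcl6b, 4 rose and 4 fell by limma and 9 did not pass. The share called was 47.1%, and over all features it was 14.8%, with 7.35% higher and 7.45% lower. The median ratio of the family was 0.06, against -0.00 over all features. No test was made of the list as a whole.

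Zbtb22 had the largest rise in the family, from 0.64 to 1.78 between arrays. Its mean was 1.33 ± 0.11 (SD, n = 3 sets), or 2.51-fold (limma adjusted p = 4.35e-05, 6 of 6 arrays). Zbtb7a, also known as LRF, a repressor that acts in blood cell fate, rose evenly. The lowest array was at 0.78 and the highest at 1.02, and the mean was 0.88 ± 0.12 (SD, n = 3 sets), or 1.84-fold (limma adjusted p = 0.000299, 6 of 6 arrays). Zbtb43 (0.44 ± 0.06, limma adjusted p = 0.0023) and Zbtb17 (0.37 ± 0.11, limma adjusted p = 0.00764) rose on 6 of 6 arrays. Zbtb17 encodes Miz1, a partner of Bcl6 and of Myc at promoters. For Zbtb43 the Cy5 arrays lay between 0.16 and 0.32 and the Cy3 arrays between 0.57 and 0.80, so the orientations did not overlap.

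Zbtb4, which encodes a methyl-CpG binding repressor, had the largest fall in the family. Its log2 ratio fell by 0.71 ± 0.09 (SD, n = 3 sets), or 1.64-fold (limma adjusted p = 0.000456), with all 6 arrays between -1.15 and -0.40. Its orientations did not overlap: the Cy5 arrays lay between -1.15 and -0.83 and the Cy3 arrays between -0.49 and -0.40, and with only the Cy3 arrays the ratio was -0.44 (limma adjusted p = 0.0299). Zbtb14 (-0.26 ± 0.04), Zbtb18 (-0.24 ± 0.11) and Zbtb20 (-0.21 ± 0.04) were lower too, with limma adjusted p of 0.0125, 0.0401 and 0.0302. Zbtb18 was below 0 on 5 of 6 arrays. The calls of Zbtb22, Zbtb7a and Zbtb4 held in each of 19 alternative settings. The call of Zbtb43 was lost without the Cy5 array of set 2 or the Cy3 array of set 1 or set 2 (adjusted p = 0.058, 0.082 and 0.0689). That of Zbtb17 was lost without set 3 or without either array of set 2 (adjusted p = 0.077, 0.0537 and 0.0551). That of Zbtb14 was lost without set 1, without set 3, without either array of set 2 and without the Cy3 array of set 1 (adjusted p from 0.0563 to 0.123). Those of Zbtb18 and Zbtb20 were lost without set 1, without set 3 and without any single array (adjusted p from 0.0583 to 0.503 and from 0.0582 to 0.253). Without set 1 or without set 3, 1 relative passed as lower. With the set as a fixed replicate block the calls of Zbtb43, Zbtb14, Zbtb18 and Zbtb20 were lost too (adjusted p = 0.091, 0.0894, 0.243 and 0.061). With only the Cy5 arrays Zbtb43 stood at 0.22, Zbtb14 at -0.16 and Zbtb18 at -0.09, and none of them passed (adjusted p = 0.127, 0.161 and 0.607). Zbtb17, Zbtb14, Zbtb18 and Zbtb20 were singled out after their values were seen.

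Bcl11a, the paralogue of Bcl11b, stood at 0.02 ± 0.06 (SD, n = 3 sets, limma adjusted p = 0.863). Its arrays were 0.13, 0.18 and 0.26 with the treated RNA in Cy5 and -0.09, -0.27 and -0.12 with it in Cy3. The sign thus followed the dye on every array, as it also did for other listed genes such as Gata3. Bcl11b was above 0 in both orientations, with its Cy3 array of set 1 at 0.02, but that constant sign belongs to the way it was picked. The difference between the paralogues was not tested, because the ratio of Bcl11b served to pick it.

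**Figure D3:**
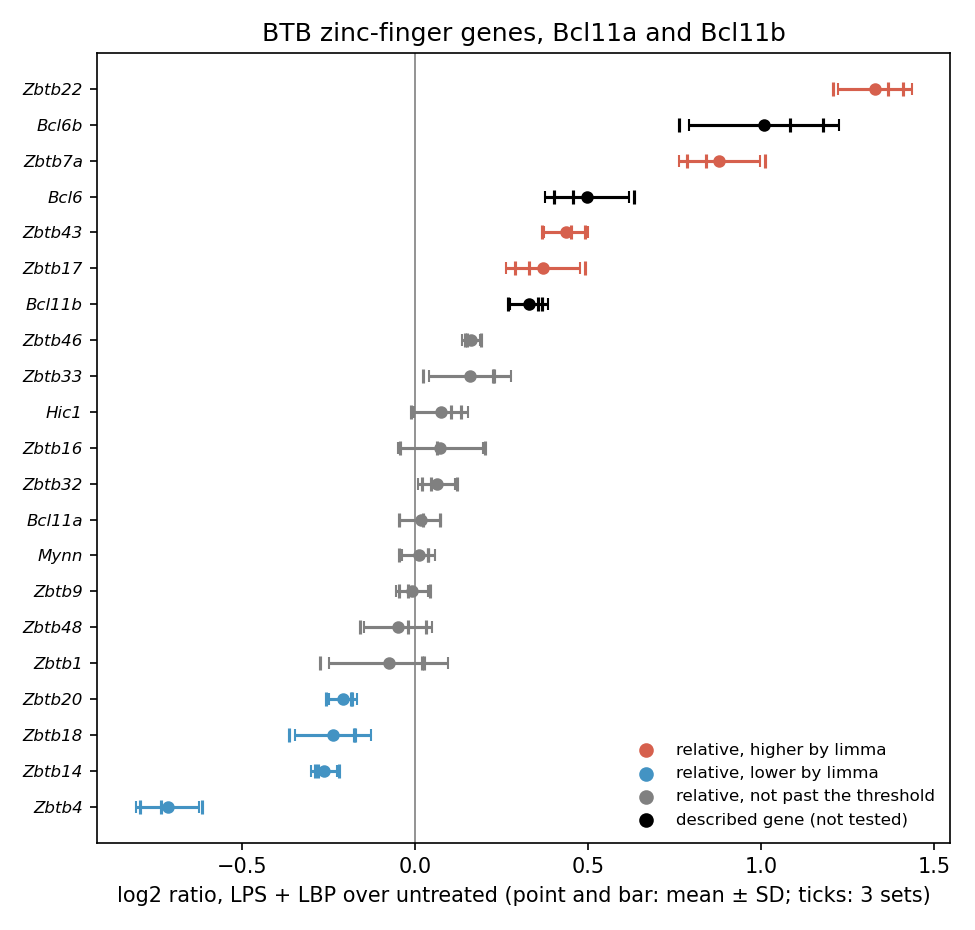
Mean log2 ratio of LPS and LBP over untreated (horizontal axis; point and bar, mean ± SD; ticks, the 3 sets) for 17 BTB zinc-finger relatives, Bcl11a and the 3 described genes, ordered by mean. Zbtb22 lies at the top at 1.33 and Zbtb4 at the bottom at -0.71, with Bcl6b, Bcl6 and Bcl11b in the upper part and Bcl11a near 0.

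Genes of the machinery that these repressors work through had ratios between -0.42 and 0.38, in both directions. Of 16 measured corepressor genes of Bcl6, 2 rose, 3 fell and 11 did not pass by limma, with a median of -0.01. The share called was 31.2%, against 14.8% of all features. Rnf2 (0.38 ± 0.11, limma adjusted p = 0.00709, 6 of 6 arrays) and Rybp (0.28 ± 0.15, limma adjusted p = 0.0374, 4 of 6 arrays), both Polycomb subunits of the complex that contains Bcor, were higher. Kdm2b, a demethylase of the same complex, was lower (-0.31 ± 0.06, limma adjusted p = 0.00888, 6 of 6 arrays). The class IIa deacetylase genes Hdac9 (-0.42 ± 0.19, limma adjusted p = 0.0152, 5 of 6 arrays) and Hdac5 (-0.27 ± 0.02, limma adjusted p = 0.0103, 6 of 6 arrays) were lower as well. Over single arrays Hdac9 ran from -1.22 to 0.13 and Rybp from -0.08 to 0.82. Hdac3, the deacetylase of the NCoR complex, stood at 0.08 ± 0.06 (limma adjusted p = 0.347). Without set 3 the calls of Hdac5, Kdm2b and Rnf2 were lost (adjusted p = 0.11, 0.113 and 0.0813), and without the Cy5 array of set 2 as well (adjusted p = 0.104, 0.0994 and 0.0624). That of Hdac5 was also lost without the Cy3 array of set 2 (adjusted p = 0.0645). That of Hdac9 was lost without set 1, without either array of set 2 and without the Cy3 array of set 1 (adjusted p from 0.0647 to 0.494). That of Rybp was lost without set 1, without set 3 and without any array except the Cy5 array of set 3 (adjusted p from 0.0583 to 0.367). With the set as a fixed replicate block the calls of Hdac9 and Rybp were lost (adjusted p = 0.298 and 0.33), and Hdac9 stood at -0.64 with only the Cy5 arrays and at -0.20 with only the Cy3 arrays.

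The NuRD complex, which Bcl11b and Bcl6 recruit, had 0 of 8 measured genes past the threshold by limma, and 2 with an unadjusted p under 0.05, both higher. Over all features, 14.8% passed the threshold, and 3150 of 11231 had an unadjusted p under 0.05. The ratios of NuRD genes lay between -0.02 and 0.16, the highest being that of Mta2 (limma adjusted p = 0.077). With only the Cy5 arrays, 1 member passed as higher. The orientations differed in this list. Chd4 stood at 0.31, 0.48 and 0.42 on the Cy5 arrays and at -0.16, -0.02 and -0.17 on the Cy3 arrays, so its sign followed the dye. Mta2 stood at -0.06, 0.07 and -0.002 on the Cy5 arrays and at 0.30, 0.40 and 0.27 on the Cy3 arrays. Of 15 measured BAF complex genes, 1 fell, and 0 rose by limma (2 higher at an unadjusted p under 0.05), a share called of 6.67%. The lower one was the ATPase gene Smarca2 (-0.19 ± 0.05, limma adjusted p = 0.0405, 6 of 6 arrays), whose call was lost without set 1, without set 3 and without any single array (adjusted p from 0.0707 to 0.3), and with the set as a fixed replicate block (adjusted p = 0.073).

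Genes known as targets of Bcl6 repression rose and fell. Of 26 measured, 8 rose, 6 fell and 12 did not pass by limma, with a median of 0.03. The share called was 53.8%, against 14.8% of all features, on a list drawn up with earlier results of these data known and with no test of the list. The chemokine genes Cxcl10 (3.70 ± 0.26) and Ccl2 (2.99 ± 0.31) and Myc (3.42 ± 0.37) rose on 6 of 6 arrays, with limma adjusted p of at most 2.8e-05. Id2, an inhibitor of DNA binding, fell by 1.77 ± 0.13 (limma adjusted p = 2.23e-05, 6 of 6 arrays). These calls held in each of 19 alternative settings. Many of these genes are also direct targets of LPS signalling, so their place on the list says nothing of Bcl6 here. Over the list, 4 rose and 2 fell without set 3 or without the Cy5 array of set 2, and 4 rose and 3 fell without the Cy3 array of set 2. Without the Cy3 array of set 1, 5 rose.

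Among 11 measured regulators of Bcl6, 4 rose, 0 fell by limma (2 lower at an unadjusted p under 0.05) and 7 did not pass. The share called was 36.4%, against 14.8% of all features, of which 7.35% were higher. Prdm1 and Irf4 are on the list of Bcl6 targets too and were counted among the higher genes of both lists. Irf8, a lineage factor of macrophages and B cells that activates Bcl6, rose 1.53-fold (0.61 ± 0.11, limma adjusted p = 0.00118), with all arrays between 0.48 and 0.86. Prdm1, which encodes Blimp-1 and is repressed by Bcl6 and represses it in turn, was 1.40-fold higher (0.49 ± 0.20, limma adjusted p = 0.00998). Prdm1 lay between 0.17 and 0.53 on 5 arrays and at 1.23 on the Cy3 array of set 2. Irf4 (0.29 ± 0.05, limma adjusted p = 0.00963) and Stat3 (0.26 ± 0.04, limma adjusted p = 0.0143) were higher on 6 of 6 arrays. The orientations of Stat3 did not overlap, with the Cy5 arrays between 0.35 and 0.40 and the Cy3 arrays between 0.06 and 0.17, and with only the Cy3 arrays it stood at 0.13 (limma adjusted p = 0.242). Stat5a (0.13 ± 0.10, limma adjusted p = 0.183) and Stat5b (-0.15 ± 0.07, limma adjusted p = 0.103), whose proteins repress Bcl6 in lymphocytes, did not pass. Without set 3 the calls of Prdm1, Irf4 and Stat3 were lost (adjusted p = 0.0897, 0.119 and 0.154). They were also lost without either array of set 2 (adjusted p from 0.0683 to 0.19). That of Prdm1 was further lost without the Cy3 array of set 1 (adjusted p = 0.0936), and that of Stat3 without the Cy5 array of set 1 or set 3 (adjusted p = 0.141 and 0.051). With the set as a fixed replicate block the calls of Prdm1, Irf4 and Stat3 were lost as well (adjusted p = 0.145, 0.0536 and 0.115), and with only the Cy5 arrays Prdm1 stood at 0.29 (adjusted p = 0.147).

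Bcl6 and Bcl11b are lymphocyte genes in many settings, so lymphocyte markers were set beside them. Of the markers measured, limma called 9.09% for T lymphocytes, 22.2% for B lymphocytes and 50% for macrophages, against 14.8% of all features. An unadjusted p under 0.05 was found for 3150 of 11231 features. Of 11 T lymphocyte markers measured, 1 rose and 0 fell by limma (4 higher and 0 lower at an unadjusted p under 0.05), and their ratios lay between -0.11 and 0.51. The higher one was Il7r (0.51 ± 0.06, limma adjusted p = 0.0011, 5 of 6 arrays). Its single arrays ran from -0.14 to 1.27, so its small SD of the sets rests on averaging arrays that disagreed. The CD3 chain genes Cd3e, Cd3d and Cd3g stood at 0.22, -0.01 and -0.05 and did not pass. Among T lymphocyte markers that did not pass, the highest was Cd28 at 0.26 (limma adjusted p = 0.0663) and the lowest Gata3 at -0.11. The median of the T lymphocyte list was 0.08. Without set 2, 4 T lymphocyte markers passed as higher, and without either single array of set 2 the call of Il7r was lost (adjusted p = 0.0969 and 0.362). Of 9 B lymphocyte markers, Cd22 (0.68 ± 0.19, limma adjusted p = 0.00231) and Ebf1 (0.22 ± 0.04, limma adjusted p = 0.027) rose and 0 fell by limma (3 higher and 0 lower at an unadjusted p under 0.05), while Cd79a, Ms4a1 and Pax5 stood at -0.01, -0.06 and 0.04. The highest B lymphocyte marker that did not pass was Vpreb1 at 0.14, the lowest was Ms4a1, and the list median was 0.04. The call of Ebf1 was lost without set 1, without set 3 and without any single array (adjusted p from 0.0532 to 0.34), and that of Cd22 without the Cy5 array of set 2 (adjusted p = 0.0728) and with only the Cy3 arrays (adjusted p = 0.0755). With zeros kept as 0, Cd22 stood at 0.30 and did not pass (adjusted p = 0.108), and with probes measured on at least 4 arrays it stood at 0.36 (adjusted p = 0.039). The value of 0.68 rests on 1 probe, and both settings add probing of Cd22 that lacked a value on part of the arrays. The probes of Cd22 thus differed. With the set as a fixed replicate block the calls of Il7r and Ebf1 were lost (adjusted p = 0.242 and 0.129), and Il7r stood at 0.30 with only the Cy5 arrays (adjusted p = 0.324). Macrophage markers gave 2 higher (Adgre1 and Spi1), 2 lower (Fcgr1 and Csf1r) and 4 not past the threshold, with ratios from -0.47 to 0.83. The call of Csf1r was lost without any one set or array (adjusted p from 0.0574 to 0.2) or with the set as a fixed replicate block (adjusted p = 0.0613), and that of Spi1 without the Cy5 array of set 2 (adjusted p = 0.0622). The part of other cells in the ratios of Bcl6 and Bcl11b was not tested.

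**Figure D4:**
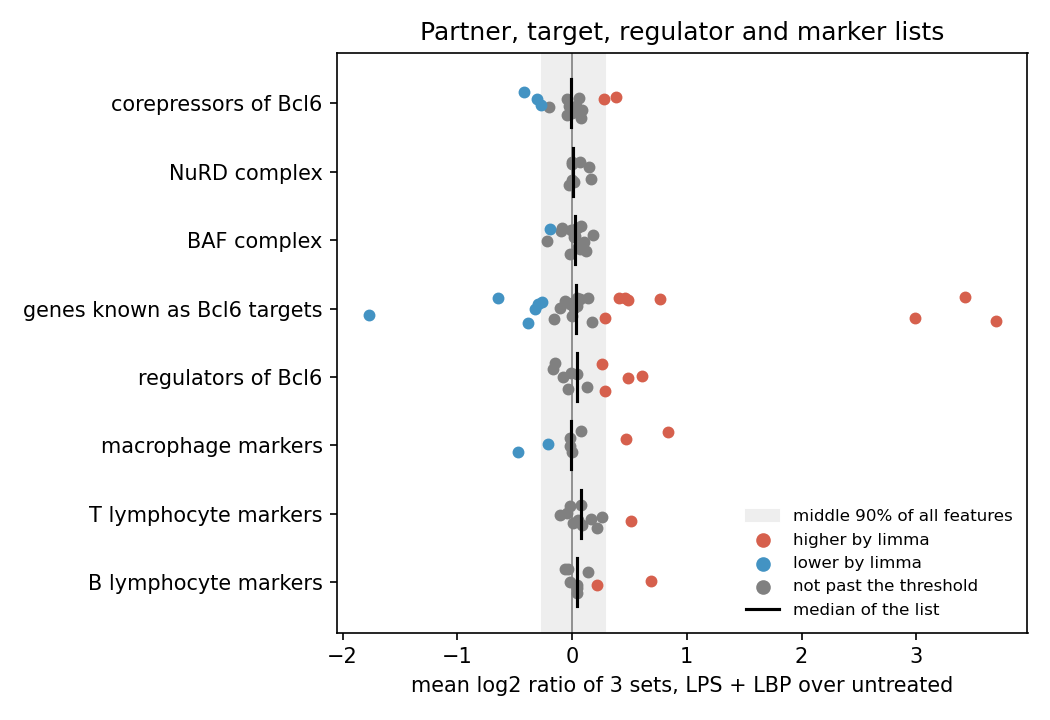
Mean log2 ratio of 3 sets (horizontal axis) for each measured gene of 8 lists (rows), coloured by its limma call, with the median of each list as a black line and the middle 90% of all features, from -0.26 to 0.29, shaded. List medians stay near 0, and genes known as Bcl6 targets reach from -1.77 to 3.70.

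The named genes whose ratios ran closest to each of the 3 were found by the Euclidean distance over the 6 sign-turned arrays, on the log2 scale. Closest to Bcl6 were 5430427O19Rik (distance 0.12), Tmem98 (0.13), Plek (0.15), Wdr1 (0.17) and Sod2 (0.17), which encodes mitochondrial superoxide dismutase, against a median distance of 1.37 over all named genes. Closest to Bcl6b were Il4i1 (0.39), which encodes an amino acid oxidase, Mtmr7 (0.44), the small Maf factor gene Maff (0.52), the chemokine gene Ccl5 (0.63) and the AP-1 gene Fosl2 (0.64), against a median of 2.68. Closest to Bcl11b were Rfx1 (0.29), Pttg1 (0.34), Xcl1 (0.35), the class I histocompatibility gene H2-K1 (0.36) and Lgals9 (0.38), against a median of 1.09. Bcl11b lay at a distance of 0.71 from Bcl6, which is rank 332 by nearness to Bcl6. Bcl6b lay at 1.51 from Bcl6, further than the median gene, but seen from Bcl6b, whose median distance is larger, Bcl6 held rank 181 by nearness. Closeness here mostly reflects a like size of ratio, and it is a description over arrays of a single contrast.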

How the data were processed

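The authors deposited 1 log2 ratio per probe and array, for 16281 probes on 6 arrays. That the base is 2 was read off the numbers, since 89.9% of non-zero values divided by log2 of 10 have at most 7 decimals (tolerance 0.001 of the last decimal). How arrays were scanned, corrected for background and normalized is not given in the sources used here. Ratios were read as Cy5 over Cy3, which no source states and which the channel names make likely; of 8 genes that LPS is known to induce, 8 had the matching sign on every array. Array medians lay between 0.00 and 0.02. Spot intensities were not used, and precision is limited by how few arrays there are.

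Zeros (10.8% of the table, between 9.12% and 12.4% of an array) were treated as missing. Where treated RNA carried Cy3 the sign was turned. Of the probes, 13738 had 1 gene symbol, 52 several and 2491 none. The 13224 probes measured on all arrays were averaged per gene, which gave 11231 features, 9472 of them named genes. The arrays of a set were averaged, and limma 3.58.1 (R 4.3.3) tested whether the mean of the 3 set means differs from 0, by lmFit with eBayes. The test is two-sided, with Benjamini-Hochberg adjustment over all features and a threshold of 0.05. The dye effect used the unturned set means in the same way. The script was tested on simulated data. Same-numbered arrays were averaged as dye swaps by the set numbers in the labels. With the signs as deposited, their deviations from the mean of their orientation correlated with r = 0.40, 0.43 and 0.14, and with the signs turned to treated over untreated with r = -0.40, -0.43 and -0.14, so the check does not show that same-numbered arrays share a deviation of the treatment ratio.

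The genes described and the gene lists were chosen with earlier results of these data known. Genes named by rule were the 3 members, up to 4 genes per list with the largest change among those called with the same sign on all arrays, every called gene of a list with at most 5 calls, and the 5 nearest genes of each member. List genes that did not pass were named outside this rule. They are Bcl11a, Hdac3, Chd4, Mta2, Stat5a, Stat5b, Cd3e, Cd3d, Cd3g, Thy1, Cd28, Gata3, Cd79a, Ms4a1, Pax5 and Vpreb1. Gene lists came from textbook knowledge. Some lists share genes, so their counts are not separate observations. The target and regulator lists share Prdm1 and Irf4, and the corepressor and NuRD lists share deacetylase genes. Promoter windows are from RefSeq (GRCm38.p6).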

Additional observations from a re-analysis of the deposited data

Results flagged for a closer look

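Bcl6b was picked out because the lowest of its 6 arrays lay apart: the gap from the Cy5 array of set 2 (0.26) to the next array (0.99) was 0.654 of the whole range, above Dixon's 95% critical value for 6 values. Without that array the Bcl6b ratio was 1.18. Prdm1 was picked out in the same way, with a gap of 0.665 of its range to the high Cy3 array of set 2 (1.23). Hdac5 gave 0.631, with the Cy3 array of set 1 the lowest (-0.32) in a range that reached only to -0.25. These were 3 of 33 genes screened, and chance alone gives about 1 in 20.

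Bcl11a was picked out because its sign differed between dye orientations: every array with the treated RNA in Cy5 was above 0 and every array with it in Cy3 below 0. Its mean lean to Cy5 was 0.17 on the log2 scale. The test of that lean by limma gave adjusted p = 0.174, and 0.0805 with the 6 arrays fitted singly. Other listed genes had the same split with a larger lean, such as Gata3 (0.31), Thy1 (0.28) and Chd4 (0.26). The split is therefore not particular to Bcl11a.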

How the results depend on the processing

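The ratios of Bcl6 (0.43 to 0.55) and Bcl6b (0.84 to 1.18) stayed within 1 SD of their value in each of 20 alternatives, and that of Bcl11b in 16. The SD was that of each gene's own sets (0.12, 0.22 and 0.05 for Bcl6, Bcl6b and Bcl11b), so the limits differed. Part of the alternatives could not move a gene with 1 probe measured on all arrays, and left these ratios identical. They were single arrays, the random and fixed replicate blocks, zeros kept as 0, the median of probes, probes on at least 4 arrays and every probe a feature. Bcl11b stood at 0.42 with only the Cy5 arrays and 0.24 with only the Cy3 arrays, and between 0.22 and 0.44 when single arrays were left out. Leaving out a set moved Bcl6 between 0.43 and 0.55, Bcl6b between 0.92 and 1.13 and Bcl11b between 0.31 and 0.36. The dye effect changed sign for Bcl11b without set 1 (-0.037) and for Bcl6b without set 2 (0.051), and over the sets left out it ran up to 0.21 and down to -0.30. Bcl11a changed sign with only the Cy3 arrays (-0.16), without set 3 (-0.01) and without any one Cy5 array (-0.019, -0.057 and -0.046), and over single arrays left out it lay between -0.057 and 0.091.

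The count of called features was 1663. It was 1376 for single arrays without a replicate block, 2282 with the set as a random replicate block, whose consensus correlation was -0.441, and 854 with it as a fixed replicate block. It was 962 with zeros kept, 639 with only the Cy5 arrays and 655 with only the Cy3 arrays, between 563 and 1685 without 1 set, and between 533 (without the Cy5 array of set 2) and 1329 without 1 array. The split of 826 higher and 837 lower became 352 and 211 without set 3, 352 and 181 without the Cy5 array of set 2, and 408 and 247 with only the Cy3 arrays. The features with a dye effect numbered 56 for single arrays with no replicate block. Of 29 named list genes called, 10 kept their call in each of 19 settings, and of 551 values 152 missed the threshold and 0 changed sign; beyond the smaller number of arrays in part of the settings, the cause was not tested. With zeros kept as 0, calls lost include those of Zbtb17 (adjusted p = 0.0696), Rnf2 (0.0697), Spi1 (0.0565) and Prdm1 (0.11).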
